A study of Mus musculus with 8 samples.

Results

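Translation initiation factors are the proteins that bring the initiator tRNA, the mRNA and the ribosomal subunits together at a start codon. Their genes were followed here in OT-I CD8 T cells stimulated with a weak antigen in the presence or absence of TGFβ. The members are the rows of the deposited table whose gene name begins with Eif1 to Eif6, leaving out the eIF4E-binding proteins, the eIF2 kinases, pseudogenes and antisense names. This rule took 49 of 47069 gene IDs and used no measured value. A further 14 rows had a matching name and were left out by the rule. RNA was taken after 24 h from 4 samples with OVA-T4 (SIITFEKL, 10 nM) and TGFβ (5 ng/ml), named OVA-T4 + TGFβ, and from 4 samples with OVA-T4 alone, named OVA-T4. The labels call them biological replicates. All cells were OT-I T cells of genotype WT from mouse lymph nodes. They carry 1 transgenic T cell receptor, so both groups show the response of a single receptor specificity to a single weak peptide, and the data hold no unstimulated cells. The methods mention both OT-I mice and Rag1-deficient OT-I mice without assigning them to these libraries.

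The libraries had 35586261 to 40040249 reads with OVA-T4 + TGFβ and 35839293 to 41597929 reads with OVA-T4, as solved from the FPKM values, and a tested member had 62 to 101897 reads in a library. FPKM, fragments per kilobase of a gene scaled to the library's total, is a level per gene length and relative to the library, so a change in the total RNA of a cell cannot be seen in it. Within a group the libraries correlated at 0.981 to 0.992 across genes (Pearson). The label CD8 T cell was checked with 7 marker genes, whose summed level was 2724 to 2925 FPKM with OVA-T4 + TGFβ and 2345 to 2663 FPKM with OVA-T4. In these bulk samples fewer cells of a type and less RNA per cell cannot be told apart. Of 5 B cell markers above 0 in any library 4 had the higher mean with OVA-T4 + TGFβ, with a summed level of 239 to 258 FPKM with OVA-T4 + TGFβ and 192 to 232 FPKM with OVA-T4, most of it Ighm, while Ms4a1 was at 0 in all libraries. Of 8 macrophage and monocyte markers above 0 all 8 had the higher mean with OVA-T4 + TGFβ, with sums of 10.8 to 45.6 FPKM with OVA-T4 + TGFβ and 4.83 to 12.9 FPKM with OVA-T4, and Mrc1 was at 0. Of 7 dendritic cell markers 6 had the higher mean with OVA-T4 + TGFβ, with sums of 10.99 to 14.3 FPKM with OVA-T4 + TGFβ and 3.21 to 7.07 FPKM with OVA-T4, and Clec9a and Siglech were at or near 0. The part of these cells in the levels of the initiation factors was not tested.

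As background, initiation in the cytosol begins when eIF2 with GTP carries the initiator tRNA to the small ribosomal subunit, helped by eIF1, eIF1A, eIF3 and eIF5. The mRNA is brought in by eIF4F, which joins the cap-binding protein eIF4E, the scaffold eIF4G and the helicase eIF4A. eIF2B then recharges eIF2 with GTP for the next round. Naive T cells make little protein, and activation through the T cell receptor raises translation and the levels of many of these factors.

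Most initiation factor mRNAs were lower with OVA-T4 + TGFβ than with OVA-T4. Of the 49 members, 46 had a mean of at least 0.5 FPKM and were tested with limma on log2(FPKM + 0.5), with Benjamini-Hochberg adjustment over all 12879 genes tested. At an adjusted p under 0.05, 34 of the 46 were lower, 3 were higher (Eif3f, Eif3h and Eif4g3) and 9 did not pass the test. Among all genes tested 20.2% were lower and 30.7% were higher, against 73.9% lower and 6.52% higher of the initiation factors. The median log2 fold change was -0.34 over the initiation factors and 0.08 over all genes tested. In 33 members every library with OVA-T4 + TGFβ was below every library with OVA-T4, and in 4 members (the 3 above and Eif5a2) every one was above, while the groups did not overlap in 18.9% of all genes on the lower side and in 29.1% on the higher side. The fold changes ran between -0.84 for Eif1a and 0.39 for Eif3f on the log2 scale.

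**Figure D1:**
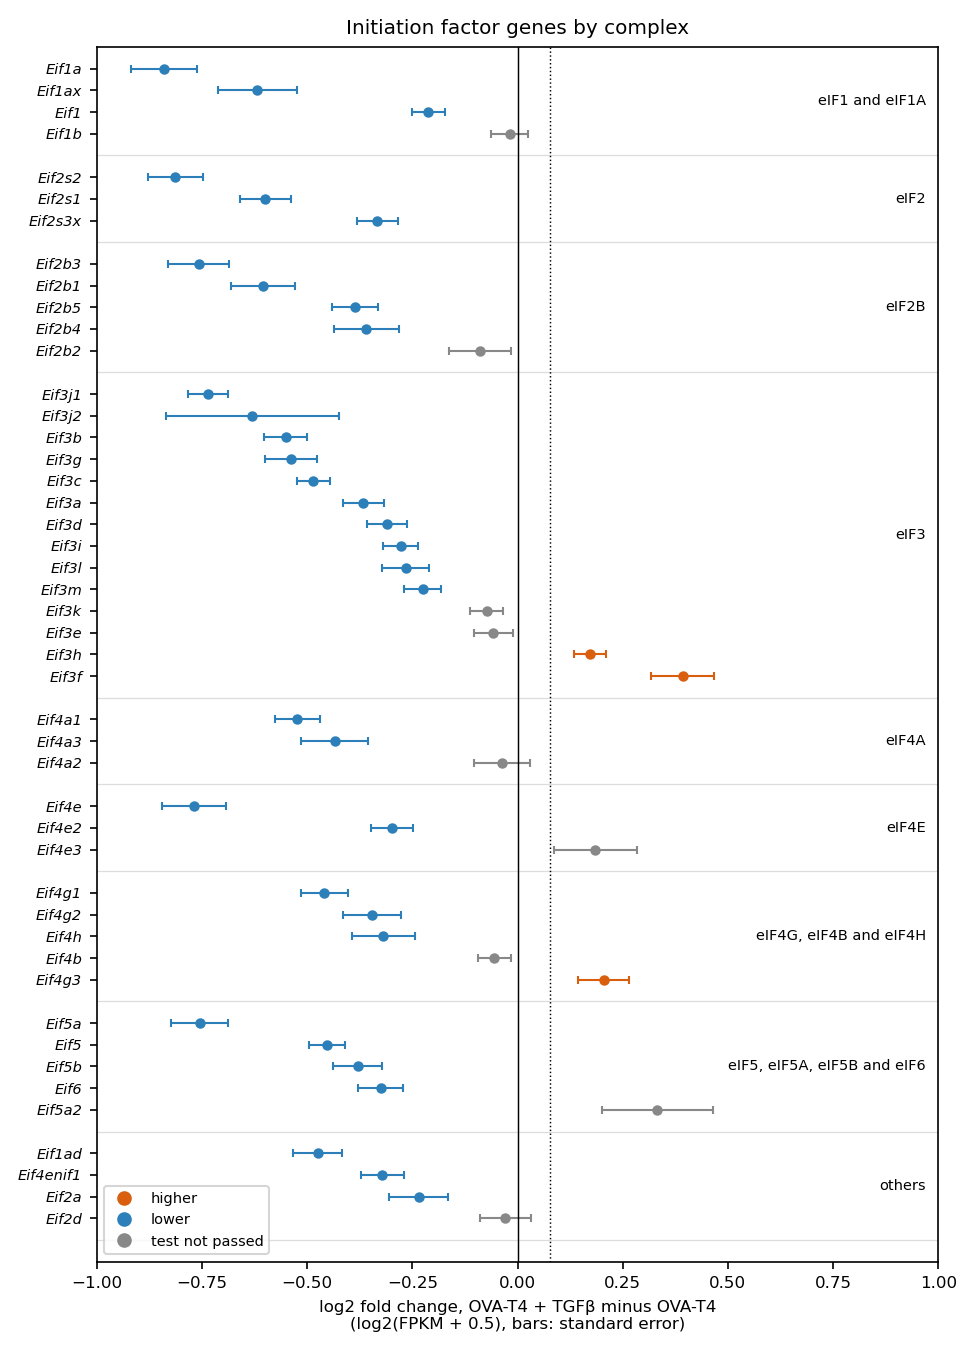
Log2 fold change of each tested initiation factor gene, OVA-T4 + TGFβ minus OVA-T4, with its standard error from limma (4 libraries in each group), ordered by complex. The dotted line is the median of all genes tested (0.08). The 34 genes called lower lie in every complex, and the 3 called higher are Eif3f, Eif3h and Eif4g3.

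The members left untested were listed at 0 FPKM in all 8 libraries. They are Eif2s3y, the copy of the eIF2 gamma subunit gene on chromosome Y, Eif4e1b, a relative of Eif4e known from mouse oocytes, and Eif2c5, whose name comes from an older symbol of the Argonaute genes and which GENCODE lists as a lincRNA. Summed over all members, the level was 9461, 10127, 9701 and 9819 FPKM in the OVA-T4 + TGFβ libraries, against 12190, 12964, 12854 and 12372 FPKM in the OVA-T4 libraries. The groups did not overlap, and the mean with OVA-T4 + TGFβ was 0.776 of that with OVA-T4. As a share of the summed FPKM of all genes, the members took 1.29% ± 0.0436 with OVA-T4 + TGFβ and 1.62% ± 0.0414 with OVA-T4 (SD, n = 4 each). Eif5a and Eif4a1 had the first and second highest level of all members in every library.

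The promoters of the members were searched for the sequence CACGTG, the E-box that Myc with Max binds and that other basic helix-loop-helix proteins also bind. RefSeq windows of 250 bases before to 50 bases after the start, on GRCm38.p6, were at hand for 39 of the 49 members. The sequence reads the same on both strands. It was present in 10 of the 39 members (25.6%), against 8.09% of the 27025 genes with a window. Those genes were not limited to genes tested here, so the shares come from unlike sets. The share among tested genes alone was not computed. Of these 10 members 6 fell, 1 rose and 3 missed the threshold. Of the 27 tested members with a window lacking the sequence 22 fell, 1 rose and 4 missed it. Over all genes tested, with or without a window, 20.2% were lower and 30.7% were higher. The median log2 fold change was -0.34 with the sequence and -0.36 without it. Windows are printed here for some lower members, Eif4e (-0.77), Eif5a (-0.76), Eif4a1 (-0.52) and Eif4g1 (-0.46). Others are of members that were higher or did not pass (Eif3f, Eif3k, Eif5a2). Those of Eif3a and Eif4h, which were lower, and of Eif1b, which did not pass, are not printed. CACGTG is in capitals, each window 5′ to 3′ on the strand of the gene. The distance is to a RefSeq start, and a gene can have several. The windows of Eif4e, Eif5a and Eif4g1 lie inside the span that GENCODE gives the gene, so the start meant there is an inner one. That of Eif5a also lies 185 bases before another RefSeq start.
Eif4e, chr3:138527192-138527221, + strand, 64 bases before the start: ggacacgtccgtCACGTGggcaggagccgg
Eif5a, chr11:69921443-69921472, - strand, 74 bases before the start: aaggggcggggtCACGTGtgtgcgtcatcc
Eif4a1, chr11:69672595-69672624, - strand, 189 bases before the start: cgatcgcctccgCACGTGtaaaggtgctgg
Eif4g1, chr16:20672661-20672690, + strand, 54 bases before the start: ggcagtgggtgtCACGTGatggggcggagc
Eif3f, chr7:108934335-108934364, + strand, 68 bases before the start: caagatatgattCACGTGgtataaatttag
Eif3k, chr7:28981915-28981944, - strand, 44 bases before the start: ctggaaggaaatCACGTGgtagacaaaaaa
Eif5a2, chr3:28781148-28781177, + strand, 117 bases before the start: cagggcgagcttCACGTGacggggcgggac

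These matches describe letters in a window. They were found both in members that fell and in members that did not. A second feature, the terminal oligopyrimidine (TOP) start, is an mRNA that begins with C followed by a run of pyrimidines, and mTORC1 controls the translation of such mRNAs. At a RefSeq start, C followed by at least 4 pyrimidines on the strand of the gene was present in 3 of the 39 members (7.69%). The share was 3.01% of all genes with a window, again not limited to genes tested here. Of the tested members these were Eif3f, which was higher, and Eif2s3x, which was lower. The remaining member was Eif2c5, at 0 FPKM in all libraries. Their starts are printed from 10 bases before the start to 20 bases into the transcript, with the run of pyrimidines from the start on in capitals.
Eif3f, chr7:108934405-108934434, + strand: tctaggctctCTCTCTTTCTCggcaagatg
Eif2s3x, chrX:94212632-94212661, - strand: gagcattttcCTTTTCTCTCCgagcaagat

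Among the 4 genes of eIF1 and eIF1A, those of eIF1A fell most. eIF1 and eIF1A bind the small subunit near its decoding site and set how strictly the start codon is chosen. Eif1a (chr18:46597701-46616456 on GRCm38, + strand) had 35.9, 41.8, 35.8 and 42.9 FPKM with OVA-T4 + TGFβ, against 64.3, 68.1, 73.8 and 74.9 FPKM with OVA-T4. All 4 libraries with TGFβ lay far below the lowest without it, and the log2 fold change was -0.84 ± 0.08 (SE, limma adjusted p = 3.58e-05). Its X-linked relative Eif1ax, which encodes a near-identical protein, had 43.2, 53.4, 54.4 and 43.2 FPKM with OVA-T4 + TGFβ, against 73.0, 77.7, 80.0 and 67.3 FPKM with OVA-T4. It fell by 0.62 on the log2 scale (SE 0.09, limma adjusted p = 5.73e-04), again with no overlap. Reads that match both of such close copies cannot be assigned to either with certainty, so the level of each is less certain than that of a gene without a copy.

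Eif1, the eIF1 gene, was the most abundant of these 4 genes and fell less than the eIF1A genes. Its level was 591, 605, 583 and 618 FPKM with OVA-T4 + TGFβ, against 689, 708, 684 and 696 FPKM with OVA-T4. The groups were apart because replicates were tight, and the log2 fold change was -0.21 ± 0.04 (SE, limma adjusted p = 0.00183). Eif1b, which encodes a close relative of eIF1, had 65.2, 63.6, 66.2 and 63.8 FPKM with OVA-T4 + TGFβ, against 63.1, 68.0, 68.0 and 63.3 FPKM with OVA-T4. The groups overlapped and the test was not passed (log2 fold change -0.02, limma adjusted p = 0.749).

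All 3 tested genes of eIF2, the carrier of the initiator tRNA, were lower, with a median log2 fold change of -0.60. The largest fall was in Eif2s2, which encodes the beta subunit that contacts eIF5 and eIF2B. Eif2s2 (chr2:154871410-154892935, - strand) had 61.4, 73.3, 68.9 and 66.0 FPKM with OVA-T4 + TGFβ, against 111, 124, 124 and 115 FPKM with OVA-T4. The groups were well apart, at a log2 fold change of -0.81 ± 0.06 (SE, limma adjusted p = 1.47e-05). Eif2s1, for the alpha subunit that the stress kinases phosphorylate, averaged 56.6 FPKM with OVA-T4 + TGFβ and 85.8 FPKM with OVA-T4 (log2 fold change -0.60). Eif2s3x, for the gamma subunit that holds GTP and the tRNA, averaged 193 FPKM with OVA-T4 + TGFβ and 244 FPKM with OVA-T4 (log2 fold change -0.33). The 3 subunits stand in one complex in equal numbers, while their mRNAs differed in level and in the size of the fall.

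In eIF2B, the exchange factor that loads eIF2 with GTP, 4 of 5 genes were lower. Eif2b3, for the gamma subunit, had 18.5, 19.7, 17.1 and 19.3 FPKM with OVA-T4 + TGFβ, against 29.1, 34.2, 30.3 and 34.1 FPKM with OVA-T4. It had the lowest level of the 5 in every library and the largest fall (log2 fold change -0.76 ± 0.07 SE, limma adjusted p = 4.15e-05). Eif2b1, for the alpha subunit, followed with -0.61, and Eif2b5, for the catalytic epsilon subunit, and Eif2b4, for the delta subunit, with -0.39 and -0.36. Eif2b2, for the beta subunit, averaged 70.2 FPKM with OVA-T4 + TGFβ and 75.1 FPKM with OVA-T4 and did not pass the test (log2 fold change -0.09, limma adjusted p = 0.334).

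Most genes of eIF3, the largest of the factors, were lower, and 2 were higher. It binds the small subunit, keeps the large one away and links to eIF4G. Of its 14 genes 10 were lower (71.4%), 2 were higher (14.3%, Eif3f and Eif3h) and 2 did not pass the test (Eif3e and Eif3k). Among all genes tested 20.2% were lower and 30.7% were higher. Eif3f (chr7:108934417-108942951, + strand) had 463, 435, 432 and 465 FPKM with OVA-T4 + TGFβ, against 367, 331, 298 and 376 FPKM with OVA-T4. Every library with TGFβ was above every library without it, and the log2 fold change was 0.39 ± 0.07 (SE, limma adjusted p = 0.00211). Eif3h (chr15:51786558-51865523, - strand), whose protein pairs with eIF3f through their MPN domains, had 420, 405, 412 and 411 FPKM with OVA-T4 + TGFβ, against 372, 361, 355 and 375 FPKM with OVA-T4. The groups did not overlap, and the log2 fold change of 0.17 ± 0.04 was small (SE, limma adjusted p = 0.00478). With median of ratios scaling Eif3h was at 0.09 and did not pass (limma adjusted p = 0.0808).

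The falling eIF3 genes included the 2 that led the complex with OVA-T4. Eif3b, for the subunit with the RNA recognition motif and propeller that contacts eIF3i and eIF3g, averaged 348 ± 11.8 FPKM with OVA-T4 + TGFβ and 511 ± 27.5 FPKM with OVA-T4 (SD, n = 4 each, log2 fold change -0.55). Eif3c, for a core subunit, averaged 329 ± 8.47 FPKM with OVA-T4 + TGFβ and 461 ± 10.8 FPKM with OVA-T4 (log2 fold change -0.49). The order of levels within eIF3 differed between the groups. Eif3f was first and Eif3h second in each of the 4 OVA-T4 + TGFβ libraries, with Eif3b at place 3 and Eif3c at place 4, while Eif3b was first and Eif3c second in each of the 4 OVA-T4 libraries. The level of Eif3f divided by that of Eif3b was 1.22 to 1.38 with OVA-T4 + TGFβ and 0.566 to 0.769 with OVA-T4. The lower end of the order did not differ, with Eif3a, Eif3d, Eif3j1 and Eif3j2 at places 11 to 14 in every library.

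**Figure D2:**
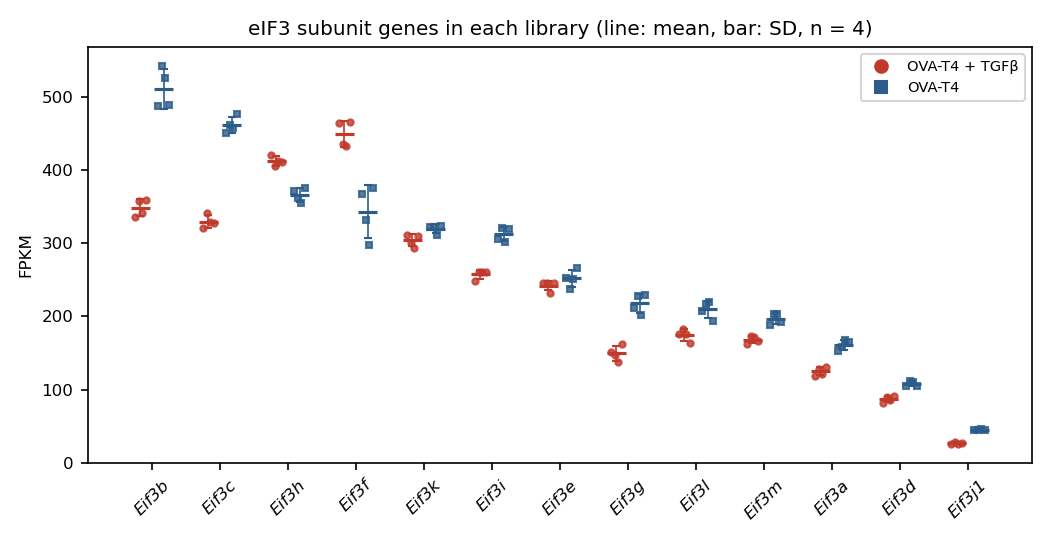
FPKM of 13 eIF3 subunit genes in each library, with OVA-T4 + TGFβ (circles) left of OVA-T4 (squares). Lines are means and bars SDs of 4 libraries. Eif3f and Eif3h lie higher with OVA-T4 + TGFβ, and Eif3b and Eif3c, the highest 2 with OVA-T4, lie lower. Eif3j2, at 0.672 to 2.10 FPKM, is not drawn.

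The subunits of the PCI and MPN octamer, the structural core of mammalian eIF3, and the other subunits were set side by side. Of the 8 octamer genes (Eif3a, c, e, f, h, k, l and m) 4 were lower, 2 were higher and 2 did not pass, with a median log2 fold change of -0.15. Of the 6 others (Eif3b, d, g, i, j1 and j2) all 6 were lower, with a median of -0.54. In the octamer 50.0% were lower and 25.0% higher, against 20.2% lower and 30.7% higher of all genes tested. The list was made with these results known, so the difference is a description. The largest fall was in Eif3j1, for a loosely bound subunit that reaches the decoding site, with 26.0, 28.0, 26.0 and 27.3 FPKM with OVA-T4 + TGFβ, against 44.5, 44.3, 46.7 and 44.4 FPKM with OVA-T4. This was the smallest adjusted p among all members (log2 fold change -0.73 ± 0.05 SE, limma adjusted p = 4.67e-06). Its copy Eif3j2 had only 0.672, 1.68, 0.938 and 0.727 FPKM with OVA-T4 + TGFβ, against 2.10, 1.45, 1.74 and 1.77 FPKM with OVA-T4. The groups overlapped through replicate 2, and the call (log2 fold change -0.63 ± 0.21 SE, limma adjusted p = 0.0287) was lost without any one of replicates 1, 3 and 4 of either group (limma adjusted p 0.0521 to 0.0796) and with no filter on low values (0.0686).

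Eif3e and Eif3k, which did not pass, code for further octamer subunits. Eif3e had 245, 245, 232 and 245 FPKM with OVA-T4 + TGFβ, against 253, 238, 251 and 266 FPKM with OVA-T4 (log2 fold change -0.06, limma adjusted p = 0.323). Eif3k averaged 304 FPKM with OVA-T4 + TGFβ and 319 FPKM with OVA-T4 (log2 fold change -0.07, limma adjusted p = 0.145). Both overlapped between groups. Eif3e, Eif3f, Eif3h and Eif4b are initiation factor genes that have been listed as TOP mRNAs. The list came from general knowledge with earlier results of these data known, so its count describes these 4 genes alone. None of these 4 fell, 2 rose and 2 missed the threshold, with a median log2 fold change of 0.06. Among all genes tested 20.2% were lower and 30.7% were higher. In the search of starts, Eif3f had a TOP start, Eif4b had a window without one, and Eif3e and Eif3h had no window. Eif2s3x, outside the list, had a TOP start and was lower. With median of ratios scaling Eif3e, Eif3k and Eif4b were lower (log2 fold changes -0.14, -0.16 and -0.14, limma adjusted p = 0.0203, 0.00948 and 0.0357).

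eIF4A is the helicase that unwinds the mRNA leader. Eif4a1, the main form in growing cells, had 974, 1109, 1034 and 1021 FPKM with OVA-T4 + TGFβ, against 1427, 1536, 1534 and 1448 FPKM with OVA-T4. The fall was clear in every library (log2 fold change -0.52 ± 0.05 SE, limma adjusted p = 5.94e-05). A processed copy left out by the rule, Eif4a-ps4, stood at 17.2% to 18.2% of the Eif4a1 level with OVA-T4 + TGFβ and at 16.8% to 18.1% with OVA-T4, and reads of the 2 cannot be fully separated. Eif4a2, its paralogue, had 437, 427, 396 and 471 FPKM with OVA-T4 + TGFβ, against 453, 410, 434 and 477 FPKM with OVA-T4. These groups overlapped and the test was not passed (log2 fold change -0.04, limma adjusted p = 0.667). Eif4a3, whose protein serves in the exon junction complex and not in eIF4F, averaged 271 FPKM with OVA-T4 + TGFβ and 366 FPKM with OVA-T4 (log2 fold change -0.43).

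The cap-binding genes parted by paralogue. Eif4e (chr3:138526179-138559696, + strand), for the protein that holds the cap in eIF4F, had 60.5, 70.1, 69.2 and 62.1 FPKM with OVA-T4 + TGFβ, against 99.6, 115, 122 and 111 FPKM with OVA-T4. The groups were far apart, with a log2 fold change of -0.77 ± 0.08 (SE, limma adjusted p = 4.36e-05). Eif4e2, which encodes 4EHP, a cap-binding protein that does not build eIF4F with eIF4G and is known as a repressor, had 47.8, 49.6, 47.5 and 49.1 FPKM with OVA-T4 + TGFβ, against 58.1, 63.4, 61.3 and 56.4 FPKM with OVA-T4. It fell less, by 0.30 on the log2 scale (SE 0.05, limma adjusted p = 9.73e-04). Eif4e3, a further cap-binding relative, had 3.80, 3.91, 4.39 and 3.42 FPKM with OVA-T4 + TGFβ, against 3.15, 3.43, 3.68 and 3.14 FPKM with OVA-T4. Its groups overlapped and it did not pass the test (log2 fold change 0.18 ± 0.10 SE, limma adjusted p = 0.149).

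The scaffold genes also went different ways. Eif4g1, for the main eIF4G, had 239, 265, 246 and 240 FPKM with OVA-T4 + TGFβ, against 330, 358, 357 and 317 FPKM with OVA-T4 (log2 fold change -0.46 ± 0.06 SE, limma adjusted p = 1.64e-04). Eif4g2, for DAP5, which lacks the eIF4E-binding part and followed Eif5a and Eif4a1 in mean level, had 718, 811, 793 and 727 FPKM with OVA-T4 + TGFβ, against 927, 967, 1081 and 906 FPKM with OVA-T4 (log2 fold change -0.35 ± 0.07 SE, limma adjusted p = 0.00257). Neither gene overlapped between the groups. Eif4g3 (chr4:137993022-138208508, + strand), for the other full-length eIF4G, had 79.8, 73.2, 73.4 and 82.5 FPKM with OVA-T4 + TGFβ, against 67.7, 62.8, 65.0 and 72.3 FPKM with OVA-T4. It was higher by 0.20 ± 0.06 on the log2 scale (SE, limma adjusted p = 0.0197), with a narrow gap between the groups. The call was lost with median of ratios scaling (log2 fold change 0.12, limma adjusted p = 0.0964) and without OVA-T4 + TGFβ replicate 1 (0.0581), OVA-T4 + TGFβ replicate 4 (0.0519) or OVA-T4 replicate 2 (0.0554).

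eIF4B and eIF4H both stimulate the helicase. Eif4b had 247, 243, 236 and 245 FPKM with OVA-T4 + TGFβ, against 248, 257, 259 and 244 FPKM with OVA-T4. These values overlapped (log2 fold change -0.06, limma adjusted p = 0.265). Eif4h had 210, 241, 243 and 214 FPKM with OVA-T4 + TGFβ, against 272, 300, 306 and 255.5 FPKM with OVA-T4. These did not overlap, and the gene was lower (log2 fold change -0.32 ± 0.07 SE, limma adjusted p = 0.00627).

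The factors of subunit joining and of the steps after it were led by Eif5a, the most abundant member. eIF5A carries the modified amino acid hypusine and helps the ribosome through difficult peptide bonds and termination. Eif5a (chr11:69916714-69921958, - strand) had 1147, 1334, 1224 and 1263 FPKM with OVA-T4 + TGFβ, against 1956, 2262, 2168 and 2004 FPKM with OVA-T4. The log2 fold change was -0.76 ± 0.07 (SE, limma adjusted p = 2.47e-05), with no overlap. Its paralogue Eif5a2 had 3.34, 4.57, 4.68 and 3.41 FPKM with OVA-T4 + TGFβ, against 3.18, 3.05, 3.34 and 2.63 FPKM with OVA-T4. Its groups failed to overlap only by a margin too small to show in these digits, and it did not pass the test (log2 fold change 0.33 ± 0.13 SE, limma adjusted p = 0.0603). It passed with the replicate number as a block (limma adjusted p = 0.0268), with TPM scaling (0.0482), with limma voom on solved reads (0.0399), among protein-coding genes alone (0.0484) and without OVA-T4 + TGFβ replicate 1 (0.0426) or 4 (0.0452).

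The 3 other genes of this group were lower with no overlap. Eif5, for the protein that triggers GTP hydrolysis by eIF2, averaged 124 FPKM with OVA-T4 + TGFβ and 170 FPKM with OVA-T4 (log2 fold change -0.45). Eif5b, for the GTPase that joins the subunits, averaged 63.2 FPKM with OVA-T4 + TGFβ and 82.4 FPKM with OVA-T4 (-0.38). Eif6, for the protein that holds free large subunits apart from small ones, averaged 247 FPKM with OVA-T4 + TGFβ and 309 FPKM with OVA-T4 (-0.33).

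Of 4 tested genes that share the name but not the main pathway, 3 were lower. Eif1ad, for a protein with an eIF1A-like domain that acts in ribosome maturation in human cells, had 38.9, 44.6, 41.7 and 40.0 FPKM with OVA-T4 + TGFβ, against 55.8, 60.3, 54.7 and 59.4 FPKM with OVA-T4. The groups did not overlap (log2 fold change -0.47 ± 0.06 SE, limma adjusted p = 1.62e-04). Eif4enif1, for the eIF4E transporter 4E-T, was at -0.32. Eif2a, for a tRNA-binding protein unrelated to eIF2 alpha, was at -0.23 (limma adjusted p = 0.0197) and did not pass without OVA-T4 replicate 2 (0.0513) or 3 (0.0505). Eif2d, for a factor that can deliver tRNA without GTP, averaged 32.8 FPKM with OVA-T4 + TGFβ and 33.5 FPKM with OVA-T4 and did not pass (log2 fold change -0.03).

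A ratio of 2 genes within a library does not depend on the scaling between libraries, so 10 ratios of relatives were compared by an exact permutation test over the 8 libraries (two-sided, adjusted over the 10). The smallest p that 4 against 4 libraries can give is 0.0286, and 7 of the 10 ratios reached it, at an adjusted p of 0.0408. The ratio of Eif5a2 to Eif5a was low in all libraries, at 0.00291, 0.00342, 0.00383 and 0.0027 with OVA-T4 + TGFβ, against 0.00162, 0.00135, 0.00154 and 0.00131 with OVA-T4. The difference of the log2 ratios, 1.14, was the largest of the 10. For Eif4e3 to Eif4e the ratio was 0.0629, 0.0558, 0.0635 and 0.0550 with OVA-T4 + TGFβ, against 0.0316, 0.0297, 0.0302 and 0.0283 with OVA-T4, a difference of 0.98. For Eif4g3 to Eif4g1 the difference was 0.67, for Eif4a2 to Eif4a1 0.49, for Eif4e2 to Eif4e 0.47 and for Eif1b to Eif1 0.19, all with the less abundant relative higher in proportion with OVA-T4 + TGFβ. For Eif4h to Eif4b it was -0.26. The remaining 3 did not pass. Eif4g2 to Eif4g1 differed by 0.11 (exact permutation p = 0.0571, adjusted 0.0714), Eif1a to Eif1ax by -0.22 (p = 0.229, adjusted 0.254) and Eif3j2 to Eif3j1 by -0.16 (p = 0.6, adjusted 0.6). The permutation test does not use the replicate numbers. Between libraries of the same replicate number, each of the 7 ratios that passed kept its direction in 4 of 4 pairs. Eif4g2 to Eif4g1 was higher with OVA-T4 + TGFβ in 4 of 4 pairs and Eif1a to Eif1ax lower in 4 of 4. A sign-flip test over 4 pairs cannot give a p below 0.125, so none of the 10 ratios can pass it.

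**Figure D3:**
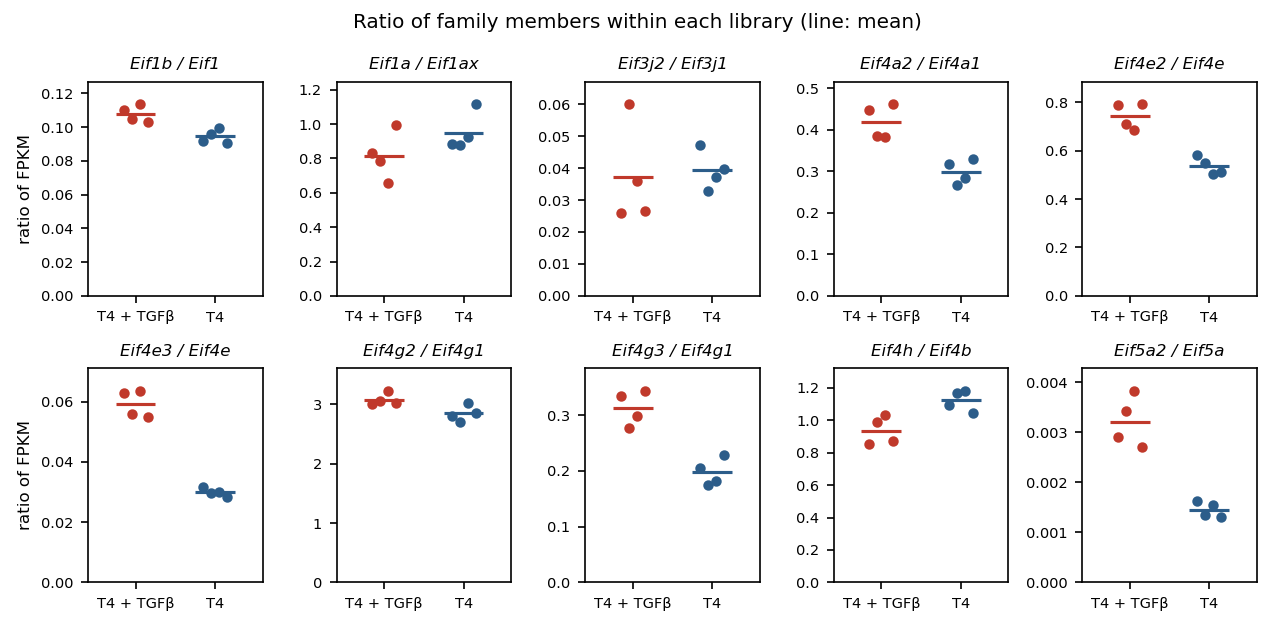
Ratio of the FPKM of 2 related genes in each library, with OVA-T4 + TGFβ left of OVA-T4 and the mean as a line. The groups do not overlap in 7 of the 10 panels, and overlap for Eif1a to Eif1ax, Eif3j2 to Eif3j1 and Eif4g2 to Eif4g1.

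Other genes of translation were counted from lists of general knowledge, to be read against the 30.7% of all genes that were higher and the 20.2% that were lower. Of 10 inhibitors and kinases that act on initiation, 1 fell, 3 rose (a share near that of all genes) and 6 missed the threshold. The one that fell, Eif4ebp1, encodes the protein that sequesters eIF4E until mTORC1 phosphorylates it. It had 33.8, 36.0, 30.5 and 39.1 FPKM with OVA-T4 + TGFβ, against 88.3, 93.8, 70.2 and 99.6 FPKM with OVA-T4. Its groups lay far apart, and the log2 fold change of -1.32 ± 0.11 (SE, limma adjusted p = 2.20e-05) was larger in size than that of any initiation factor. The largest rise was in Eif2ak3, for PERK, the kinase of eIF2 alpha in the endoplasmic reticulum, with 16.9, 12.6, 13.9 and 13.9 FPKM with OVA-T4 + TGFβ, against 9.11, 7.61, 6.98 and 8.4995 FPKM with OVA-T4 (log2 fold change 0.79 ± 0.11 SE, limma adjusted p = 3.38e-04). Pdcd4, for an inhibitor of eIF4A, and Paip2, for an inhibitor of the poly(A)-binding protein, were higher by 0.44 and 0.43 on the log2 scale. The other eIF2 kinase genes, Eif2ak1, Eif2ak2 and Eif2ak4, did not pass. The list had 2 lower genes with the replicate block and 3 with median of ratios scaling.

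Of 14 partners of initiation, 8 were lower, 2 were higher and 4 did not pass. The largest fall was in Larp1, for a protein that binds TOP mRNAs (log2 fold change -0.66). The largest rise was in Mknk2, for a kinase of eIF4E, at 0.72, with 375, 362, 376 and 355 FPKM with OVA-T4 + TGFβ, against 225, 225, 233 and 210 FPKM with OVA-T4. The other kinase gene of this pair, Mknk1, was higher by 0.17, and 1 partner in place of 2 was higher with median of ratios scaling or quantile normalization. With TPM scaling 4 partners were lower, and 5 were lower without OVA-T4 + TGFβ replicate 1 or without OVA-T4 replicate 3. Both hypusine enzymes, which modify eIF5A, were lower, Dohh with -0.53 and Dhps with -0.41.

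Of 8 genes with names of cytosolic elongation factors 4 were lower (Eef1d, Eef1e1, Eef2k and Eefsec), 0 were higher and 4 did not pass. The largest fall was that of Eef1e1, a subunit of the aminoacyl-tRNA synthetase complex, at -0.86. The list goes by gene name and holds genes that are not elongation factors themselves, such as Eef1e1. Eef1b2, Eef1g and Eef2 did not pass, at 0.003, -0.03 and 0.12. With the replicate block, TPM scaling or limma voom on solved reads 2 of the 8 genes were higher. There was 1 with a pseudocount of 0.1, a mean of at least 1 FPKM, quantile normalization or protein-coding genes alone. Without OVA-T4 replicate 4 there was also 1. Eef1a1, which brings tRNA to the ribosome, was listed at 14923 to 16812 FPKM with OVA-T4 + TGFβ and at 13338 to 14804 FPKM with OVA-T4 and did not pass (log2 fold change 0.18, limma adjusted p = 0.0517). All 5 tested genes of termination and recycling were lower, led by Etf1, the release factor gene, at -0.69. Of 9 mitochondrial translation factors 3 were lower (33.3%), 2 were higher (22.2%, and 1 with median of ratios scaling) and 4 did not pass, with the largest fall in Tsfm at -0.55 and the largest rise in Mrrf, the mitochondrial ribosome recycling factor, at 0.62. The median log2 fold changes of these lists were 0.04 for inhibitors and kinases, -0.17 for partners, -0.47 for hypusine enzymes, -0.15 for elongation, -0.55 for termination and recycling and -0.01 for mitochondrial factors.

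**Figure D4:**
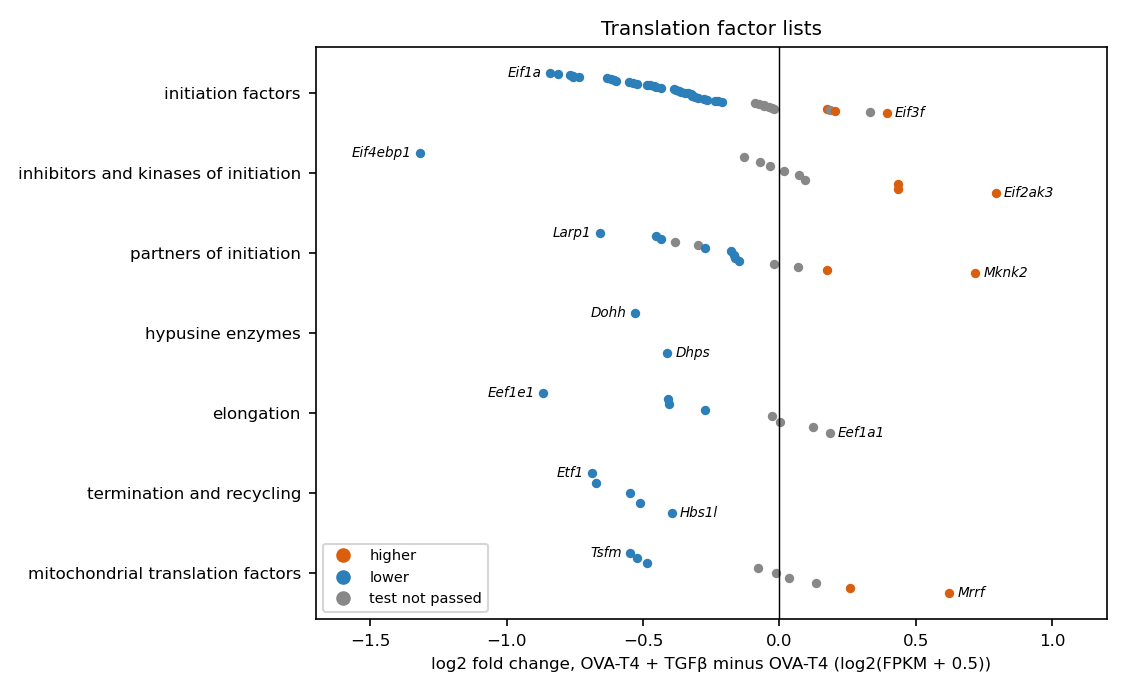
Log2 fold change, OVA-T4 + TGFβ minus OVA-T4, of each tested gene in the initiation factors and in 6 lists of other translation genes, with the lowest and highest gene of each named. Colours give the call by limma. Eif4ebp1 lies lowest of all points at -1.32 and Eif2ak3 highest at 0.79.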

How the data were processed

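RNA from OT-I CD8 T cells (4 libraries with OVA-T4 + TGFβ, 4 with OVA-T4) was enriched with oligo(dT) and sequenced by a service company. The submitters' processing notes list mm10 as the build and CASAVA, HTSeq and HISAT2 as tools, and versions are not given in the sources used here. The authors deposited FPKM values, scaled by gene length and library total, for 47069 gene IDs.

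Members and lists were chosen with earlier results of these data known. The 12879 genes whose mean level reached 0.5 FPKM were tested two-sided on log2(FPKM + 0.5) with limma's variance trend (limma 3.58.1, R 4.3.3), at a Benjamini-Hochberg adjusted p under 0.05. Fold changes on this scale understate low genes. The labels and the study call the samples biological replicates without saying whether cultures or mice differed, so p-values measure the spread between these samples. Values per library are given for the largest fall and rise in each complex, members opposite to their complex, paired relatives and TOP genes. The largest change each way is named from the other lists, and members named further were chosen after their values were seen. The test was tried on simulated counts in which few genes changed and the libraries were independent. That setting is unlike these data, so the trial does not cover them.

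Whole reads were solved from the FPKM values with 1 length per gene and 1 total per library (100.0% of the 12879 genes, tolerance 0.005 reads), giving 40040249, 35586261, 39446072 and 35836413 reads with OVA-T4 + TGFβ and 38233903, 35839293, 41481888 and 41597929 reads with OVA-T4. The length is the smallest that gives whole reads, so reads can be understated. Between libraries of the same replicate number, deviations from the group means correlated at r 0.179, 0.205, 0.419 and 0.505. For different numbers r was -0.489 to 0.254, so the ranges overlap. OVA-T4 + TGFβ replicates 3 and 4 correlated most with the OVA-T4 library of their own number. OVA-T4 + TGFβ replicate 1 correlated more with OVA-T4 replicate 4 (0.246), and replicate 2 more with OVA-T4 replicate 3 (0.239). Whether the numbers pair the samples is therefore not settled by these values. The main test and the ratio test have no block, and a fit with it is among the alternatives. Alternatives were other pseudocounts, filters and scalings, the replicate block, limma voom on solved reads, protein-coding genes alone by GENCODE's gene type (both chosen after seeing the data) and leaving out each library. Of the marker genes, 1 is not reported here. Positions come from GENCODE M21 (98.9% of gene IDs found) and promoters from RefSeq. Other steps used Python 3.11.15, matplotlib 3.10.9, SciPy 1.17.1, pandas 2.3.3 and numpy 2.4.6.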

Additional observations from a re-analysis of the deposited data

Results flagged for a closer look

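In 5 of 112 groups of 4 libraries, 1 library stood apart from the other 3 by Dixon's test, where chance gives about 1 in 20. Eif3i was lowest in OVA-T4 + TGFβ replicate 1 (248 FPKM) and Eif3e in OVA-T4 + TGFβ replicate 3 (232 FPKM). Eif2b5 was lowest in OVA-T4 replicate 1 (54.8 FPKM), Eif3k was lowest in OVA-T4 replicate 3 (311 FPKM) and Eif3j1 was highest in OVA-T4 replicate 3 (46.7 FPKM).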

How the results depend on the processing

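Of the 37 initiation factors called, 33 were called the same way in all 18 alternatives, 32 of them lower. With median of ratios scaling 1 was higher and 37 were lower. Leaving out 1 library gave 2 to 3 higher and 32 to 34 lower, and the replicate block gave 4 higher and 34 lower, with Eif5a2 the only changed call. Members that did not pass the test changed sign, without passing, with TPM scaling (Eif1b 0.0185, Eif2d 0.00805, Eif4a2 0.000912), with quantile normalization (Eif3e 0.0604, Eif3k 0.0370, Eif4a2 0.102, Eif4b 0.0571, Eif4e3 -0.0686), and without OVA-T4 + TGFβ replicate 4 for Eif2d (-0.0601 to 0.00822 over the libraries left out) or 3 for Eif4a2 (-0.0782 to 0.00507). The ratio of Eif3j2 to Eif3j1 turned to 0.10 with 0.5 FPKM added to both. With 3 against 4 libraries no ratio could pass the exact permutation test. Among all genes tested 60.3% of the calls were higher, against 49.4% with median of ratios scaling, 65.1% with TPM scaling and 46.8% with quantile normalization, which moved the median of all genes by -0.11 on the log2 scale. The cause of these differences was not tested. Protein-coding genes alone (10703 genes) gave 4 higher and 34 lower.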
